A study of Mus musculus with 33 samples.

Results

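The genes described here are 10 genes of simple epithelia: the keratins Krt7, Krt8, Krt18 and Krt19, the claudins Cldn3, Cldn4, Cldn6 and Cldn7, the occludin gene Ocln and the epithelial cell adhesion molecule gene Epcam. They were chosen by name out of 52631 genes in the expression table, where each was found once. All 10 reached at least 1 FPKM in at least 3 of the 33 libraries, the filter that 16508 genes passed in all. FPKM counts fragments scaled to the length of the transcript and the size of the library, so genes can be set side by side on it.

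The study followed mouse embryonic stem cells of strain 129S2/SvPas through 16 days of differentiation in 2 arms and sequenced poly(A) RNA from 3 libraries in each of 11 groups. Untreated stem cells (mES, day 0) grew with LIF in medium with 15% serum on embryonic fibroblasts inactivated with mitomycin. In the RA arm, stem cells on gelatin received 10 µM all-trans retinoic acid (atRA), and in the RA/CHIR arm 10 µM atRA with 5 µM CHIR, which the labels do not spell out and which is commonly the short name of a GSK3 inhibitor used to switch on Wnt signalling. Both arms were sampled on days 4, 7, 10 and 16, and the labels call the RA arm SMC-like and the RA/CHIR arm XEN-like. Both had 15% serum during 10 days of induction, followed by 10% serum without inducers for 6 days, so time, inducers and serum cannot be told apart between day 10 and day 16. No untreated culture was sampled on days 4 to 16. Against mES, the inducers can therefore not be told apart from time or from the culture of mES, with LIF on fibroblasts. The reference populations, smooth muscle cells (SMC) and extra-embryonic endoderm cells (XEN), grew in 15% serum, are labelled with the same strain and were not treated. They are separate populations, so the line and its culture cannot be told apart from the cell type. The labels do not say whether the 3 libraries of a group came from separate cultures, so p-values measure only the spread between these libraries, which may be technical.

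Keratins of simple epithelia are intermediate filament proteins that assemble as partners of a type II chain (Krt8, Krt7) and a type I chain (Krt18, Krt19). Krt8 and Krt18 are among the earliest keratins of the mouse embryo and mark trophectoderm and extraembryonic endoderm. Claudins form the sealing strands of tight junctions together with occludin, and Epcam is a surface protein of stem cells and simple epithelia that binds claudin-7 and is cut by the protease matriptase.

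Promoters are shown for 5 of the genes: Krt8 and Krt18, which are neighbours in the genome and are keratin partners, Cldn4 and Cldn6, the most abundant claudins in different groups, and Epcam. Each sequence runs 5′ to 3′ from 250 bases before to 50 after a transcription start, from RefSeq's annotation of GRCm38.p6. Capitals mark the letters CACCTG or, for the other strand, CAGGTG, the E-box that repressors of the Snail and Zeb families are known to bind in promoters such as that of Cdh1.
Krt8, chr15:102004293-102004592, minus strand: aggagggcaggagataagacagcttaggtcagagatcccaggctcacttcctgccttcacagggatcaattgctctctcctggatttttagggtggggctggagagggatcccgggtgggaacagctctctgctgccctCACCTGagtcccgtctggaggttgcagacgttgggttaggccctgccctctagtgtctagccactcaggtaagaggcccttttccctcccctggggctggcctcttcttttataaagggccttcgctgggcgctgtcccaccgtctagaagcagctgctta
Krt18, chr15:102027966-102028265, plus strand: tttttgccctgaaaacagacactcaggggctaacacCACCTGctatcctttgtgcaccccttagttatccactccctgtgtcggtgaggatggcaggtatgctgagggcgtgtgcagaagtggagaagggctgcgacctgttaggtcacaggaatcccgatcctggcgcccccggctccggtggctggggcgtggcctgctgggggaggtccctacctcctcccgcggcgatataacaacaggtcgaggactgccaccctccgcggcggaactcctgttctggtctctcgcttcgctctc
Cldn4, chr5:134946885-134947184, minus strand: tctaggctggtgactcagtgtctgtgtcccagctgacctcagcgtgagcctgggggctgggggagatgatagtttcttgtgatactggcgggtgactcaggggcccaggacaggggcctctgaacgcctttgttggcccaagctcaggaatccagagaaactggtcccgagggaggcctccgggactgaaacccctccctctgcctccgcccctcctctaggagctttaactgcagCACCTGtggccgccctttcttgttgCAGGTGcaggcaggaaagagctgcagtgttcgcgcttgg
Cldn6, chr17:23679115-23679414, plus strand: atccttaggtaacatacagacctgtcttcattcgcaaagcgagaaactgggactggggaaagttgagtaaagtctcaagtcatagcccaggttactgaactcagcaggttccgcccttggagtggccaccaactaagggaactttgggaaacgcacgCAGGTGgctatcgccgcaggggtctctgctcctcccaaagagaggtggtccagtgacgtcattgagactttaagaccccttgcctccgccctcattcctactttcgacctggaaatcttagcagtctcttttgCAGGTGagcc
Epcam, chr17:87635729-87636028, plus strand: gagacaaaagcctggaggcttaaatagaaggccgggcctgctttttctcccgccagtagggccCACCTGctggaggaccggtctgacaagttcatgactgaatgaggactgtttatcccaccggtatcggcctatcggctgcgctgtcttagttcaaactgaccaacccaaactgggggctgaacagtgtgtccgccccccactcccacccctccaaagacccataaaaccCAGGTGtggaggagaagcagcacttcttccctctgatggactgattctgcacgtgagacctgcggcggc
RefSeq promoters were matched for 9 of the 10 genes, with 11 promoters in all, since Cldn7 and Ocln have a pair each, and none was matched for Krt19. The E-box letters occurred in 10 of the 11 and in at least 1 promoter of each of the 9 genes, against 20.2% of 32851 mouse promoters of the same length. The overlapping promoters of Ocln share 1 match. Matches after the start occurred in Cldn3 (32), Cldn4 (12), Cldn6 (41) and an Ocln promoter (8), with the position of the first base in parentheses. The GC box GGGCGG, searched on both strands like all motifs, occurred in 8 of 11 against 35.7%. The TATA box TATAAA occurred in 1 of 11, that of Krt8, against 13.6%. Its matches there run across the annotated start, with first bases at -3 and -1. The AP-1 motif TGANTCA occurred in 1 of 11, that of Cldn4, against 7.81%, and the TCF/LEF core CTTTGA in 0 of 11 against 16.0%. The 11 promoters held 52.0 to 68.0% G and C, with a median of 52.7% over all promoters. A match describes letters in a window, and neither binding nor its absence was measured.

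In GRCm38, Krt8 (chr15:101996698-102004482, minus strand) and Krt18 (chr15:102028180-102032027, plus strand) lie 23.697 kb apart with 0 genes wholly between them. Krt7 (chr15:101411043-101430313, plus) stands 566 kb from Krt8, with 42 genes between, and Krt19 is on chromosome 11 (chr11:100140810-100148665, minus). Cldn4 (chr5:134945119-134946934, minus) and Cldn3 (chr5:134986214-134987472, plus) are 39.279 kb apart, again with 0 genes between them. Cldn6 (chr17:23679249-23682446, plus) and Epcam (chr17:87635979-87651129, plus) share a chromosome, Cldn7 is at chr11:69964779-69967885 (plus) and Ocln at chr13:100496507-100552718 (minus). Krt8 shares 98.62% of 941 aligned bases with the pseudogene Krt8-ps, which was listed at 0 to 8.78 FPKM and at a mean of 1.16 to 1.61% of the Krt8 level in the 8 groups of both arms, so a small part of the Krt8 reads is uncertain. A Krt18 copy, Gm5200, is 90.15% identical over 1269 bases and was listed at 0 in every library. Antisense or opposite-strand genes overlap Krt7 (Gm671), Krt8 (Gm36026) and, by 40 bases, Cldn3 (Wbscr25, 0 to 0.242 FPKM), and the library protocol names no step that marks strand.

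Between 11573 and 13662 genes reached 1 FPKM in a library, and the FPKM of all genes summed to between 597010 and 1086371. The highest sum was that of mES replicate 3, against 685294 and 675357 in mES replicates 1 and 2. The steps between low FPKM values put the depth of the libraries at 0.655 to 1.17 times that of mES replicate 1, but the number of fragments behind each value is unknown. mES replicate 3 stood apart from the other mES libraries in several values used here: Krt8 was at 33.4 against 21.8 and 21.4 FPKM and Krt19 at 13.9 against 4.93 and 5.84. In that library the 8 feeder fibroblast markers summed to 65.0 against 38.6 and 38.9 FPKM, and the 10 extraembryonic endoderm markers to 490 against 365 and 367, and their part in these values was not tested. The labelled cell types were checked against their markers. The 8 pluripotency markers summed to 7886 to 9289 FPKM in mES, the 10 extraembryonic endoderm markers to 6159 to 6442 in XEN and 13522 to 14248 in RA/CHIR-16d, and the 8 smooth muscle markers to 18665 to 19332 in SMC. The endoderm markers also summed to 7714 to 7906 in SMC, where Foxa2 was listed at 0, so their sum does not tell XEN from SMC. The smooth muscle markers summed to 208 to 380 in XEN. The 8 trophoblast markers, of another lineage rich in Krt8 and Krt18, summed to at most 7.91 in these groups and RA-16d. In these bulk samples, fewer cells of a type and less RNA per cell cannot be told apart.

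Changes are differences between group means of log2(FPKM + 1), given ± SE from a single limma model of all 11 groups, and this scale understates the change of genes with low levels. A gene is said to be higher or lower, or to have risen or fallen, at a Benjamini-Hochberg adjusted p under 0.05 over all 16508 genes and a change of at least 1 in size. Comparisons with mES share the mES libraries, and those between arms share the libraries of each arm. Beside each count of genes that rose or fell stand, in parentheses, the shares of all 16508 genes that rose and that fell in the same comparison, and the libraries of a pair of groups did not overlap for 48.0 to 76.2% of all genes.

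A description of these genes as an epithelial state kept in both arms and in XEN held for some of them. Krt8, Krt18 and Krt19 stood at 72.8 FPKM or more in every library of both arms and of XEN, and Ocln at 2.42 or more. The 4 claudins and Epcam were present throughout both arms, but in XEN the claudins were listed at 0 to 0.584 FPKM, and Cdh1, the cadherin of epithelial junctions, stood at 2.75 ± 0.560 FPKM against 83.3 ± 15.2 in mES. mES cells held both kinds, with 4 claudins that summed to 76.4 ± 9.46 FPKM (mean ± SD, n = 3) and 4 keratins that summed to 46.2 ± 11.3. In mES replicate 3 these sums were close, at 65.5 and 59.3. SMC libraries held at most 0.683 FPKM of Krt8, Krt18, any of the 4 claudins, Epcam or Ocln, and kept Krt19 and Krt7 at low levels.

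**Figure D1:**
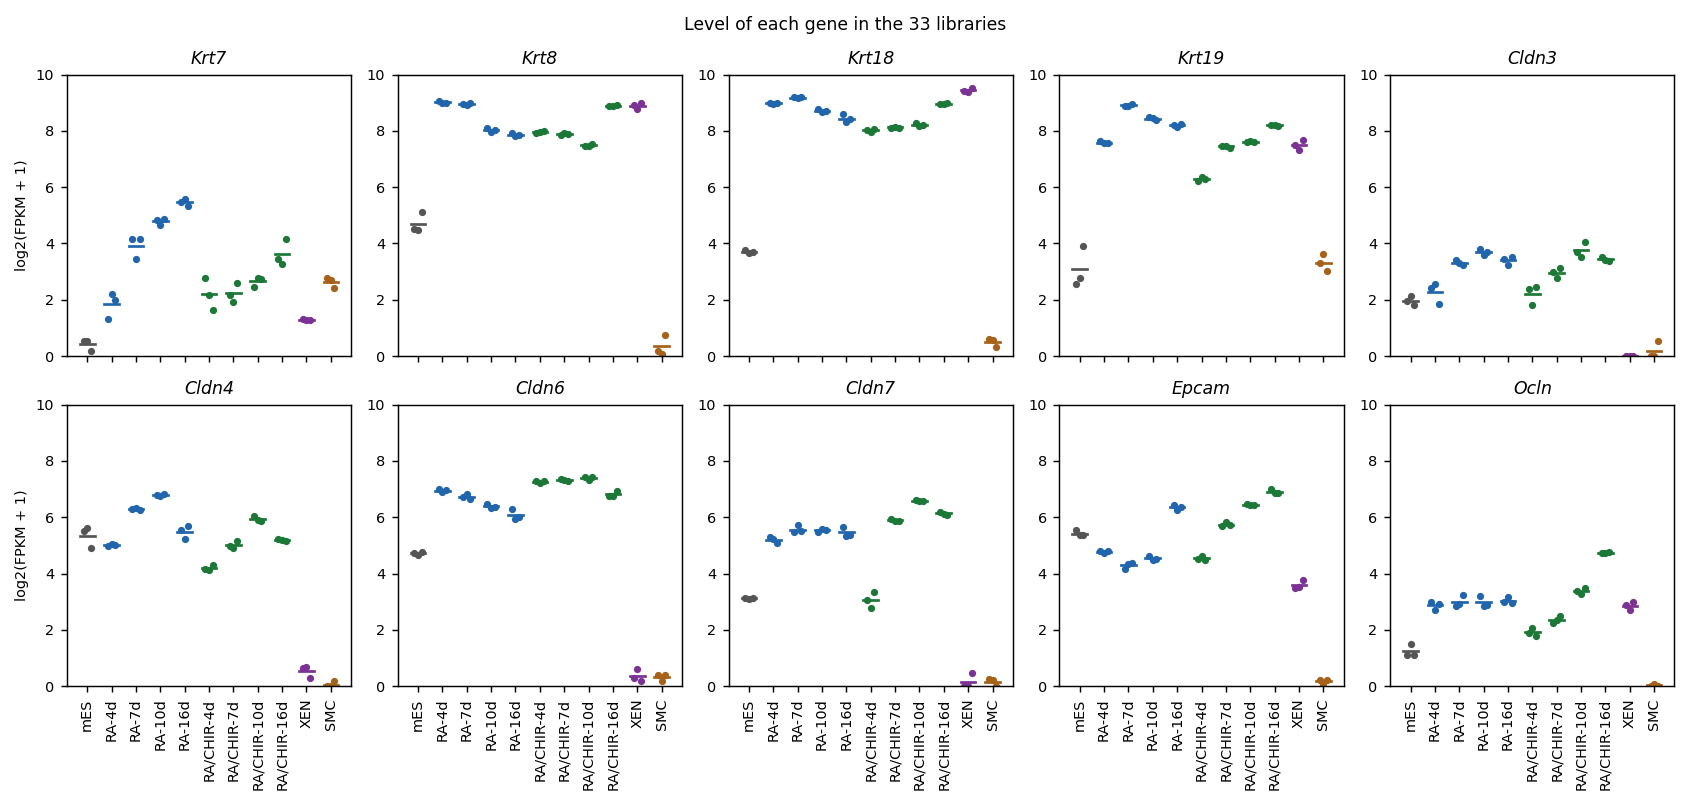
Level of each of the 10 genes in all 33 libraries, on a log2(FPKM + 1) axis, with 1 point for each library, horizontal bars at the mean of 3 libraries, and colours for mES, the RA arm, the RA/CHIR arm, XEN and SMC. Krt8 and Krt18 are high in every group but mES and SMC, whereas the claudins fall to the floor of the axis in XEN and SMC.

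Krt8, the type II chain, and Krt18, its type I partner, rose from mES in every group of both arms and in XEN. Krt8 stood at 21.8, 21.4 and 33.4 FPKM in the 3 mES libraries. In the RA arm it was at 530.0, 513 and 511 on day 4, 497, 480.4 and 507 on day 7, 276, 248 and 258 on day 10 and 245, 222 and 232 on day 16. In the RA/CHIR arm the values were 240.4, 245 and 255 on day 4, 232, 240.1 and 235 on day 7, 177, 175 and 184 on day 10 and 468, 471 and 478 on day 16. RA libraries were highest on days 4 and 7, and RA/CHIR libraries on day 16, and RA was above RA/CHIR on days 4, 7 and 10 and below it on day 16 with no overlap between arms on any of the 4 days. XEN libraries were at 480.2, 437 and 507, overlapping RA/CHIR-16d, and SMC at 0.144, 0.0583 and 0.683. The change from mES was 4.32 ± 0.12 on day 4 of RA (ratio of means 20.3, limma adjusted p = 1.05e-20) and 4.19 ± 0.12 on day 16 of RA/CHIR. Within the RA arm Krt8 fell by 1.15 ± 0.12 from day 4 to day 16 (adjusted p = 9.20e-09), and within the RA/CHIR arm it rose by 1.40 ± 0.12 from day 10 to day 16 (adjusted p = 3.09e-10).

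Krt18 stood at 12.7, 11.7 and 11.9 FPKM in mES and at 504, 501 and 508 in RA-4d. It was at 582, 568 and 583 in RA-7d, 432, 411 and 416 in RA-10d and 386, 315 and 339 in RA-16d. The RA/CHIR libraries held 257, 246 and 268 on day 4, 274, 281 and 277 on day 7, 308, 286 and 293 on day 10 and 493, 496 and 511 on day 16. As for Krt8, RA was above RA/CHIR without overlap through day 10 and below it on day 16. XEN had the highest Krt18 of all groups, at 686, 662 and 735, with a change from mES of 5.73 ± 0.06 (ratio 57.4, adjusted p = 2.10e-29), and SMC was at 0.509, 0.482 and 0.239. Over the 11 group means of log2(FPKM + 1), Krt8 and Krt18 had a Pearson r of 0.987, and 0.969 without SMC and XEN, a description of groups that share libraries and depth. Their ratio was not fixed: Krt18 over Krt8 was 0.495 ± 0.122 in mES, 0.974 ± 0.0210 in RA-4d and 1.61 ± 0.0454 in RA-10d. In RA/CHIR it was 1.66 ± 0.0772 on day 10 and 1.06 ± 0.00908 on day 16, and in XEN 1.46 ± 0.0442.

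Krt19, a type I keratin known from ducts, gut and embryonic epithelia, rose from mES in every group of both arms and in XEN. It stood at 4.93, 5.84 and 13.9 FPKM in mES, 197, 187 and 188 in RA-4d and 466, 474 and 498 in RA-7d, the highest group. RA-10d held 358, 347 and 331 and RA-16d 298, 281 and 302. In RA/CHIR the libraries were at 72.8, 80.9 and 78.1 on day 4, 166 to 177 on day 7, 192 to 198 on day 10 and 297, 294 and 289 on day 16, and XEN at 178, 160.2 and 203. The arms did not overlap until day 16, when the libraries of both overlapped. The change from mES was 5.83 ± 0.19 on day 7 of RA (adjusted p = 9.79e-20) and 3.21 ± 0.19 on day 4 of RA/CHIR, and from day 4 to day 16 Krt19 rose by 1.91 ± 0.19 in RA/CHIR. Krt19 over Krt18 was 0.378 ± 0.0113 in RA-4d and 0.851 ± 0.0694 in RA-16d, 0.301 ± 0.0244 in RA/CHIR-4d and 0.587 ± 0.0188 in RA/CHIR-16d, and 0.259 ± 0.0172 in XEN. In SMC, Krt19 was at 8.89, 11.5 and 7.12, which overlapped mES.

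Krt7, a type II keratin of ducts, bladder and mesothelium, was higher in RA than in RA/CHIR from day 7 on. It stood at 0.466, 0.449 and 0.138 FPKM in mES, 1.49, 3.63 and 3.00 in RA-4d, 16.9, 9.78 and 17.0 in RA-7d, 27.8, 24.0 and 28.5 in RA-10d and 43.2, 46.8 and 39.5 in RA-16d. The RA/CHIR libraries were at 5.78, 3.50 and 2.15 on day 4, 3.46, 2.82 and 5.02 on day 7, 4.45, 5.76 and 5.71 on day 10 and 9.88, 8.72 and 16.8 on day 16. The arms overlapped on day 4 and not on later days. From day 4 to day 16 Krt7 rose by 3.62 ± 0.25 in RA (adjusted p = 2.21e-12) and by 1.43 ± 0.25 in RA/CHIR, and the difference between these changes was -2.19 ± 0.36 (adjusted p = 9.23e-06). The sum of 10 mesothelium markers moved with it in the RA arm, at 45.6 to 46.4 FPKM on day 4, 169 to 173 on day 7, 316 to 323 on day 10 and 403 to 469 on day 16, with 10 of 10 at a mean of at least 1 FPKM from day 7. In RA/CHIR the sum was 9.95 to 15.0, 12.0 to 13.4, 13.5 to 16.9 and 75.2 to 82.0. Upk3b was listed at 0 there on day 7, Muc16 on day 10 and Bnc1 on day 16. In XEN the sum was 95.5 to 115, above that of RA/CHIR-16d, although Krt7 was lower in XEN, and Bnc1 and Muc16 were listed at 0. In SMC the sum was 27.9 to 32.6. The part of mesothelium-like cells in the Krt7 values was not tested. In XEN, Krt7 was at 1.51, 1.41 and 1.46, above mES without overlap by 0.87 ± 0.25, short of a change of 1, and with quantile normalization this change was 1.35 and with a pseudocount of 0.1 it was 1.89, both past it. SMC held 5.90, 5.45 and 4.35, higher than mES by 2.21 ± 0.25 and also higher than XEN (XEN minus SMC -1.33 ± 0.25), a difference that became -0.88 with quantile normalization.

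Cldn6, a claudin of embryonic epithelia and stem cells, rose in both arms and was higher in the RA/CHIR arm on day 10. It stood at 25.2, 24.4 and 26.4 FPKM in mES, 126, 118 and 122 in RA-4d, 104, 113 and 98.5 in RA-7d, 87.2, 79.4 and 80.8 in RA-10d and 77.0, 60.4 and 63.4 in RA-16d. The RA/CHIR values were 154, 149 and 153 on day 4, 162, 159 and 155 on day 7, 173, 161 and 173 on day 10 and 107, 108 and 122 on day 16. RA/CHIR was above RA without overlap on each day. The change from mES was 2.23 ± 0.09 in RA-4d (adjusted p = 8.82e-18) and 2.69 ± 0.09 in RA/CHIR-10d (adjusted p = 1.22e-19). In XEN the libraries were at 0.230, 0.517 and 0.128 and in SMC at 0.304, 0.126 and 0.301, which overlapped each other.

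Cldn4, a claudin of barrier epithelia, had its mES libraries overlap those of day 16 in both arms. It stood at 44.5, 47.7 and 29.0 FPKM in mES, 30.6, 32.4 and 31.5 in RA-4d, 77.1, 78.6 and 75.7 in RA-7d, 111, 108 and 111 in RA-10d and 45.1, 36.8 and 50.8 in RA-16d. In RA/CHIR it was at 17.1, 16.5 and 18.8 on day 4, 30.6, 29.2 and 34.8 on day 7, 65.6, 58.9 and 57.4 on day 10 and 36.8, 35.6 and 34.7 on day 16. Both arms were at their highest on day 10, and the day-16 libraries of both arms overlapped mES. Cldn4 was higher than in mES in RA-10d (1.46 ± 0.13, adjusted p = 1.08e-10) and lower in RA/CHIR-4d (-1.14 ± 0.13, adjusted p = 1.98e-08). In RA-7d the change was 0.95 ± 0.13, and 1.03 without mES replicate 1, 1.08 without mES replicate 2 and 1.08 with quantile normalization. From day 10 to day 16 it fell by 1.31 ± 0.13 in RA (adjusted p = 3.52e-09), and in RA/CHIR the change was -0.75 ± 0.13, short of 1. XEN libraries held 0.548, 0.584 and 0.208 and SMC 0, 0 and 0.122.

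Cldn7, the claudin that binds Epcam, rose by day 4 in RA and by day 7 in RA/CHIR. It stood at 7.76, 7.55 and 7.68 FPKM in mES and at 7.38, 5.89 and 9.18 in RA/CHIR-4d, which overlapped. RA/CHIR libraries were then at 60.7, 56.9 and 56.8 on day 7, 97.0, 93.6 and 94.6 on day 10 and 71.7, 69.1 and 67.1 on day 16. In the RA arm it was at 38.2, 36.6 and 32.6 already on day 4, 43.2, 51.7 and 44.0 on day 7, 43.0, 47.0 and 46.0 on day 10 and 49.8, 39.5 and 40.8 on day 16. RA was above RA/CHIR without overlap on day 4 and below it on days 7, 10 and 16. The change from mES was 2.08 ± 0.12 in RA-4d (adjusted p = 1.83e-14) and 3.47 ± 0.12 in RA/CHIR-10d (ratio 12.4, adjusted p = 2.73e-19). In XEN it was listed at 0, 0 and 0.371 and in SMC at 0.196, 0.163 and 0.

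Cldn3, whose protein seals tight junctions of gut and liver, was the least abundant of the 4 claudins in both arms and passed no threshold between the arms on any day. It stood at 2.92, 3.42 and 2.49 FPKM in mES, 2.64 to 4.93 in RA-4d, 8.42 to 9.62 in RA-7d, 11.2 to 13.0 in RA-10d and 8.44 to 10.6 in RA-16d. In RA/CHIR the ranges were 2.52 to 4.50, 5.78 to 7.79, 10.4 to 15.7 and 9.42 to 10.6 on the same days. The differences between arms were -0.36 to 0.05 on the 4 days, each with an SE of 0.18. The change from mES was 1.74 ± 0.18 in RA-10d and 1.78 ± 0.18 in RA/CHIR-10d, and in RA/CHIR-7d it was 0.99 ± 0.18, which passed 1 under 4 alternatives: 1.02 with trimmed-mean scaling, 1.19 with a pseudocount of 0.1, 1.08 without mES replicate 2 and 1.09 without RA/CHIR-7d replicate 2. From day 4 to day 16 it rose by 1.12 ± 0.18 in RA, and by 0.91 without RA-4d replicate 3, and by 1.23 ± 0.18 in RA/CHIR. In XEN it was listed at 0 in all 3 libraries, so no ratio is given, and in SMC at 0, 0 and 0.441.

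Among the 4 claudins the leading gene changed with the group. In mES, Cldn4 made up 52.3 ± 7.14% of their summed FPKM and Cldn6 33.7 ± 5.83%. On day 4, Cldn6 made up 63.2 ± 1.63% in RA and 84.2 ± 1.59% in RA/CHIR. On day 10 of RA, Cldn4 led with 44.0 ± 0.430%, while in RA/CHIR-10d Cldn6 held 50.1 ± 0.647% and Cldn7 28.2 ± 0.633%. On day 16, Cldn6 was the largest share in both, with 40.7 ± 2.16% in RA and 49.4 ± 2.54% in RA/CHIR. These shares were not tested.

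Ocln, the occludin gene, had risen by day 4 in RA, where the groups of later days overlapped in turn, and in RA/CHIR it rose to day 16. It stood at 1.16, 1.79 and 1.14 FPKM in mES, 6.89, 5.50 and 6.63 in RA-4d, 6.20, 6.58 and 8.45 in RA-7d, 8.22, 6.18 and 6.45 in RA-10d and 7.01, 7.998 and 6.73 in RA-16d. In RA/CHIR it was at 2.71, 3.14 and 2.42 on day 4, 3.70, 4.06 and 4.56 on day 7, 9.43, 8.66 and 10.2 on day 10 and 25.3, 25.3 and 25.8 on day 16. The 4 RA groups and XEN, at 6.33, 5.49 and 6.99, overlapped in sequence, and RA/CHIR-16d lay above every other library. The change from mES was 1.64 ± 0.12 in RA-4d, 1.63 ± 0.12 in XEN and 3.50 ± 0.12 in RA/CHIR-16d (ratio 18.7, adjusted p = 2.36e-19). From day 10 to day 16 Ocln rose by 1.35 ± 0.12 in RA/CHIR (adjusted p = 3.51e-10), and in RA the change was 0.06 ± 0.12. SMC libraries were listed at 0, 0.0579 and 0.

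Epcam was lower than in mES on day 7 of RA, when keratins were high, and higher on days 10 and 16 of RA/CHIR. It stood at 45.6, 39.8 and 40.1 FPKM in mES, 26.7, 25.7 and 26.7 in RA-4d, 16.9, 19.2 and 19.8 in RA-7d, 23.9, 21.5 and 22.1 in RA-10d and 84.8, 74.9 and 81.7 in RA-16d. In RA/CHIR it was at 21.7, 23.9 and 21.2 on day 4, 49.9, 55.5 and 51.6 on day 7, 87.2, 84.5 and 85.6 on day 10 and 126, 116 and 116 on day 16. Every RA library of days 4 to 10 and every RA/CHIR-4d library was below every mES library. Every library of RA-16d, RA/CHIR-7d, RA/CHIR-10d and RA/CHIR-16d was above every mES library. The change from mES was -0.88 ± 0.07 in RA/CHIR-4d, -0.64 ± 0.07 in RA-4d and -0.86 ± 0.07 in RA-10d, each short of 1. Epcam was lower than in mES in RA-7d (-1.13 ± 0.07, adjusted p = 3.83e-13) and higher in RA/CHIR-16d (1.49 ± 0.07, adjusted p = 6.58e-16). It was also higher in RA/CHIR-10d (1.02 ± 0.07), by 0.99 without mES replicate 2 and 0.99 without mES replicate 3. From day 10 to day 16 it rose by 1.79 ± 0.07 in RA (adjusted p = 1.07e-16), the only gene of the 10 to do so. XEN held 10.1, 10.4 and 12.7, lower than mES (-1.83 ± 0.07), and SMC 0.156, 0.0633 and 0.150.

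**Figure D2:**
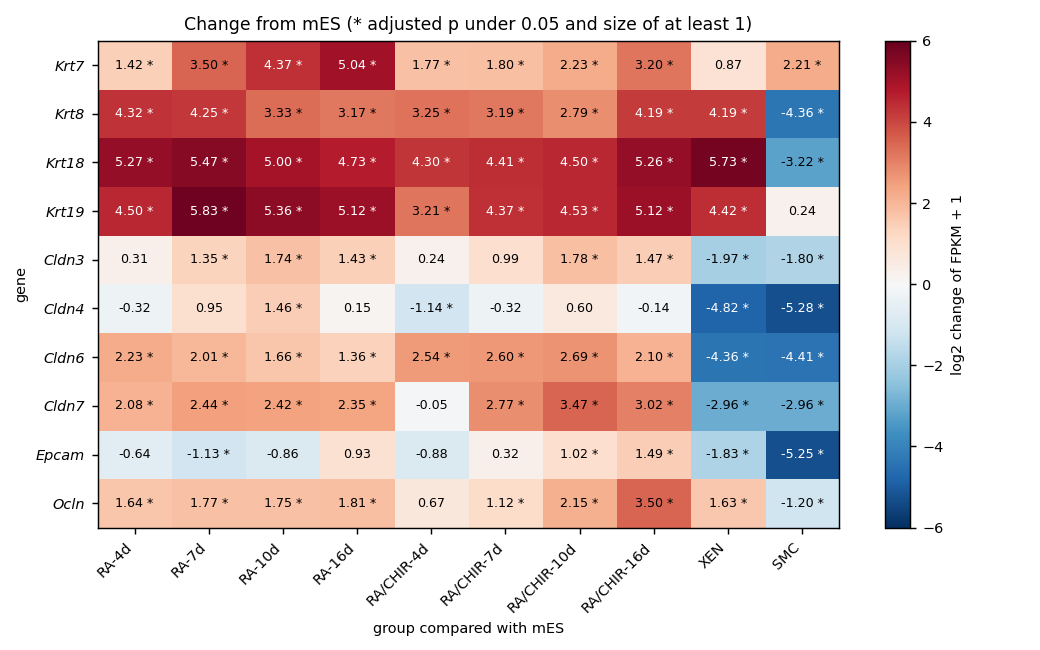
Change of each gene from mES on the log2(FPKM + 1) scale, for the 8 differentiated groups, XEN and SMC, with colour and number giving the size and an asterisk marking a limma adjusted p under 0.05 with a size of at least 1. Krt8 and Krt18 are called in all 10 columns, positive in 9 and negative in SMC, and the 4 claudin rows are all negative in XEN and SMC.

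Counted against mES, between 5 and 9 of the 10 genes rose in each group of both arms. The 4 keratins rose in all 8 groups, and the genes that did not rise in a group were among Cldn3, Cldn4, Cldn7, Epcam and Ocln. In RA, 7 rose and 0 fell on day 4 (11.7 and 11.7% of all genes), and 8 rose and 1 fell on day 7 (14.0 and 13.8% of all genes). On day 10, 9 rose and 0 fell (16.5 and 16.0% of all genes), and on day 16, 8 rose and 0 fell (20.4 and 16.3% of all genes). In RA/CHIR, 5 rose and 1 fell on day 4 (9.06 and 9.13% of all genes) and 7 rose and 0 fell on day 7 (12.0 and 13.2% of all genes). On day 10 the counts were 9 and 0 (14.1 and 15.5% of all genes), and on day 16 again 9 and 0 (18.0 and 18.3% of all genes). The median change of the 10 genes was 1.86, 2.23, 2.08 and 2.08 in RA and 1.22, 2.20, 2.46 and 3.11 in RA/CHIR, with medians over all genes of -0.02 to 0.03. The largest change in each of the 8 groups was that of Krt18 or Krt19, up to 5.83 for Krt19. As sums, the 4 keratins stood at 46.2 ± 11.3 FPKM in mES and at 1567 ± 36.7 in RA-7d, and the 4 claudins at 76.4 ± 9.46 in mES and 337 ± 12.3 in RA/CHIR-10d.

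**Figure D3:**
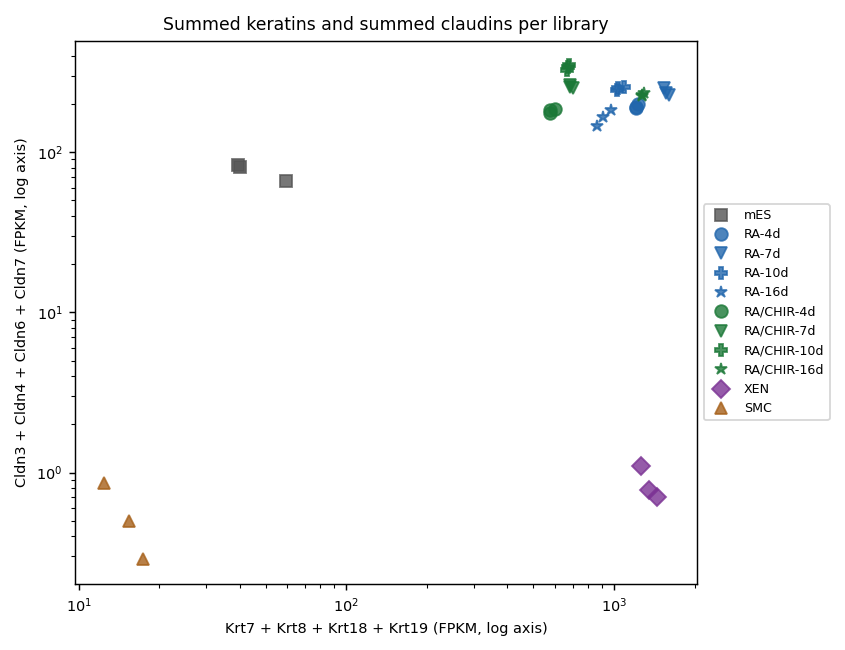
Summed FPKM of Krt7, Krt8, Krt18 and Krt19 (horizontal, log axis) against summed FPKM of Cldn3, Cldn4, Cldn6 and Cldn7 (vertical, log axis), with 1 point for each of 33 libraries, coloured and shaped by group. The 24 libraries of both arms lie at the upper right, and mES at the upper left with claudins and less keratin than the arms. XEN lies at the lower right with keratin and almost none of these 4 claudins, and SMC at the lower left.

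The comparison of RA/CHIR with RA on the same day addresses what CHIR adds to retinoic acid up to day 10. By day 16 both arms had been without inducers for 6 days, so that comparison is of cultures with different earlier treatment. In RA/CHIR, Krt8 and Krt19 were lower than in RA on days 4 and 7, and Krt7 was lower from day 7 on. Epcam was higher on days 7 and 10, Cldn6 and Cldn7 on day 10, and Krt8 and Ocln on day 16. On day 4, 0 of the 10 genes were higher and 3 lower (3.34 and 4.28% of all genes), namely Krt8 (-1.07 ± 0.12, adjusted p = 8.15e-08), Krt19 (-1.29 ± 0.19) and Cldn7 (-2.13 ± 0.12, adjusted p = 5.47e-14). Krt18 (-0.97 ± 0.06) and Ocln (-0.97 ± 0.12) were just short of a size of 1. Krt18 passed it with quantile normalization (-1.07), and Ocln with a pseudocount of 0.1 (-1.17), without RA-4d replicate 2 (-1.05) and without RA/CHIR-4d replicate 2 (-1.04).

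On day 7, 1 gene was higher and 5 were lower (4.06 and 6.61% of all genes). The 4 keratins were lower, with -1.69 ± 0.25 for Krt7, -1.07 ± 0.12 for Krt8, -1.06 ± 0.06 for Krt18 and -1.46 ± 0.19 for Krt19, and so was Cldn4 (-1.27 ± 0.13, adjusted p = 5.21e-09). Epcam was higher (1.45 ± 0.07, adjusted p = 8.62e-15), and the libraries of the arms did not overlap for any of the 10 genes, as for 56.7% of all genes. On day 10, 3 genes were higher and 1 lower (6.35 and 9.07% of all genes). Epcam (1.88 ± 0.07), Cldn7 (1.05 ± 0.12) and Cldn6 (1.02 ± 0.09) were higher and Krt7 was lower (-2.14 ± 0.25). The Cldn6 call was at the edge of the threshold, with 0.97 under quantile normalization and 0.998 without RA-10d replicate 2.

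On day 16, 2 genes were higher and 1 lower (8.41 and 12.9% of all genes). Ocln (1.69 ± 0.12, adjusted p = 2.68e-12) and Krt8 (1.02 ± 0.12) were higher in RA/CHIR and Krt7 was lower (-1.83 ± 0.25, adjusted p = 5.49e-07). The difference in Krt8 was 0.98 without RA-16d replicate 2. Krt19 stood at 294 ± 11.3 FPKM in RA and 294 ± 3.79 in RA/CHIR, a difference of 0.00 ± 0.19, and Cldn3 differed by 0.04 ± 0.18. Cldn6 (0.74 ± 0.09), Cldn7 (0.67 ± 0.12), Epcam (0.57 ± 0.07) and Krt18 (0.53 ± 0.06) lay above RA without overlap and short of a size of 1. The RA-16d libraries also held 8 fibroblast markers that summed to 2934 to 3621 FPKM, against 431 to 469 in RA/CHIR-16d, and 8 smooth muscle markers that summed to 8979 to 10332 against 467 to 483. In RA/CHIR-16d, 8 visceral endoderm markers summed to 757 to 780.4 against 22.3 to 25.2, and 8 pluripotency markers to 1057 to 1116 against 62.5 to 96.3. The part of these cell types in the differences was not tested.

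**Figure D4:**
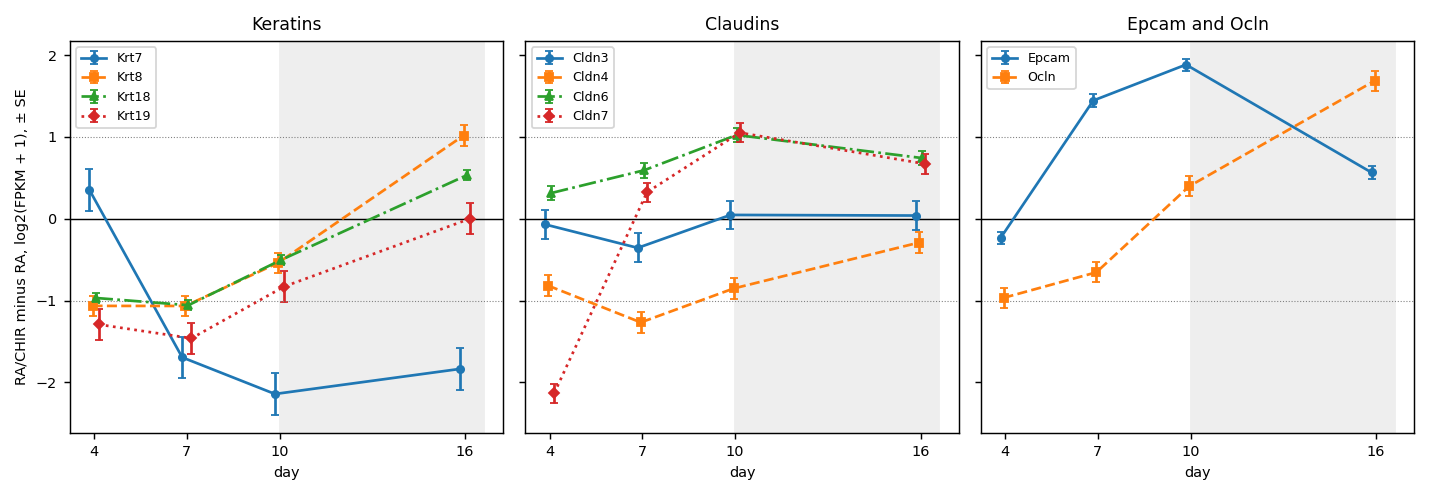
Difference between RA/CHIR and RA on days 4, 7, 10 and 16 on the log2(FPKM + 1) scale ± SE, in panels for the keratins, the claudins, and Epcam with Ocln, with dotted lines at 1 and -1 and the 6 days without inducers shaded. Krt8, Krt18, Krt19 and Ocln run from below 0 on day 4 to between 0.00 and 1.69 on day 16, Krt7 stays below 0 from day 7, and Epcam peaks on day 10 at 1.88.

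The interaction terms compare the change over time between the arms. From day 10 to day 16, with the inducers withdrawn, the change in RA/CHIR minus that in RA was 1.56 ± 0.18 for Krt8 (adjusted p = 5.34e-08), 1.04 ± 0.09 for Krt18, 1.29 ± 0.17 for Ocln (adjusted p = 7.09e-07) and -1.32 ± 0.11 for Epcam (adjusted p = 1.08e-10). These 4 of 10 genes passed the thresholds, 3 with a positive and 1 with a negative term (6.02 and 8.81% of all genes). The Krt18 term was 0.97 without RA-16d replicate 2, and the term of Krt19, 0.83 ± 0.27, was 1.05 with quantile normalization. From day 4 to day 16, 5 terms were positive and 1 negative (10.5 and 14.9% of all genes). They were those of Cldn7 (2.80 ± 0.17), Ocln (2.65 ± 0.17), Krt8 (2.08 ± 0.18), Krt18 (1.5002 ± 0.09), Krt19 (1.29 ± 0.27) and, on the negative side, Krt7 (-2.19 ± 0.36). Within the arms, from day 10 to day 16, Epcam rose and Cldn4 fell in RA, 1 gene each way (7.37 and 1.8% of all genes). Over the same days 2 genes, Krt8 and Ocln, rose in RA/CHIR and 0 fell (8.47 and 6.28% of all genes). From day 4 to day 16 in RA, 3 rose, namely Krt7, Epcam and Cldn3, and 1 fell, Krt8 (12.2 and 5.37% of all genes). In RA/CHIR 6 rose over those days and 0 fell (11.8 and 9.97% of all genes), namely Cldn7, Ocln, Epcam, Krt19, Krt7 and Cldn3, while Cldn4 was at 0.99 ± 0.13 and passed 1 with trimmed-mean scaling (1.01), with a pseudocount of 0.1 (1.03), without RA/CHIR-4d replicate 3 (1.05) and without RA/CHIR-16d replicate 3 (1.01).

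XEN cells, the reference for the RA/CHIR arm, had Krt8, Krt18 and Krt19 with Cldn3, Cldn4, Cldn6 and Cldn7 at or near 0. Against mES, 4 of the 10 genes were higher, namely Krt8, Krt18, Krt19 and Ocln, and 5 lower, the 4 claudins and Epcam (14.4 and 18.7% of all genes). Against XEN, 7 genes were higher in RA/CHIR-16d and 0 lower (14.5 and 8.64% of all genes), with a median of 2.83 for the 10 and 0.07 for all genes. Cldn6 (6.46 ± 0.09, adjusted p = 1.32e-27), Cldn7 (5.98 ± 0.12) and Cldn4 (4.67 ± 0.13) led, and Cldn3, listed at 0 in XEN, was at 10.6, 9.72 and 9.42 FPKM in RA/CHIR-16d. Epcam (3.33 ± 0.07), Krt7 (2.33 ± 0.25) and Ocln (1.87 ± 0.12) were higher as well. Krt8 stood at 472 ± 5.39 FPKM in RA/CHIR-16d and 475 ± 35.2 in XEN, with libraries that overlapped (adjusted p = 0.995, SE of the difference 0.12), and Krt18 differed by -0.47 ± 0.06 and Krt19 by 0.71 ± 0.19, both without overlap. RA-16d set against XEN had 6 genes higher and 2 lower (19.0 and 9.18% of all genes). The lower genes were Krt8 (-1.02 ± 0.12) and Krt18 (-1.003 ± 0.06), both at the edge: with quantile normalization they were at -0.82 and -0.85, without RA-16d replicate 2 at -0.99 and -0.94, without XEN replicate 3 at -0.97 and -0.96, and Krt18 was at -0.99 without RA-16d replicate 3.

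**Figure D5:**
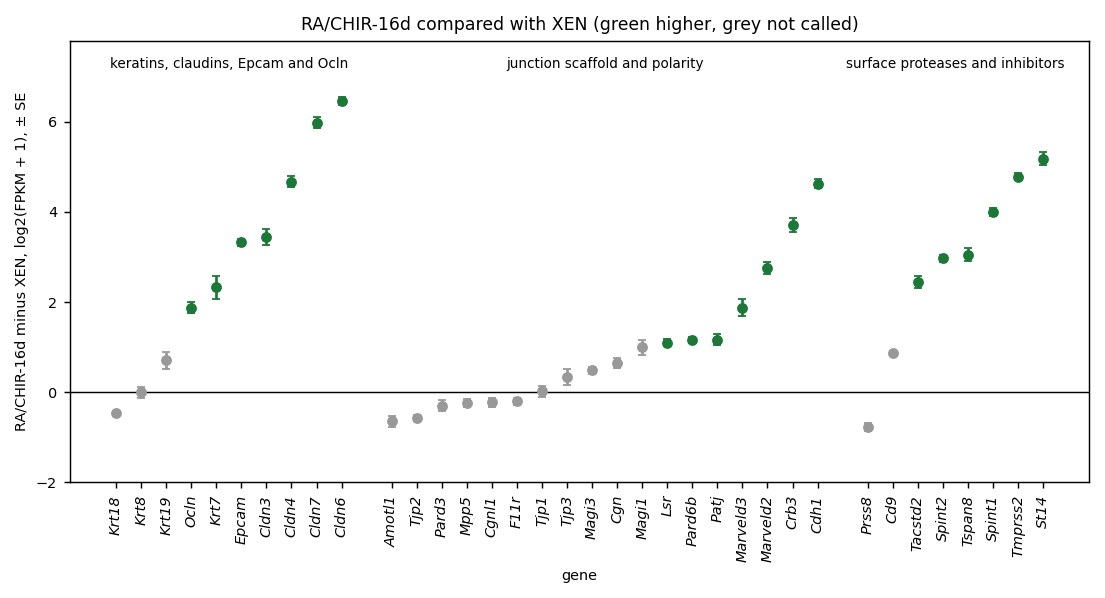
Difference between RA/CHIR-16d and XEN on the log2(FPKM + 1) scale ± SE for the 10 genes, 18 junction scaffold and polarity genes and 8 surface proteases and inhibitors, ordered by size within each list, with green points for genes that are higher and grey for genes not called. Krt18, Krt8 and Krt19 lie between -0.47 and 0.71, and the claudins between 3.45 and 6.46.

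In SMC, the reference for the RA arm, 8 of the 10 genes stood under 1 FPKM. Against mES, 1 of the 10, Krt7, was higher and 8 were lower (21.0 and 22.2% of all genes), and Krt19 differed by 0.24 ± 0.19. RA-16d, which the labels call SMC-like, had all 10 genes higher than SMC (15.0 and 10.5% of all genes), from 2.83 ± 0.25 for Krt7 to 7.95 ± 0.06 for Krt18 (adjusted p = 7.98e-33). The ratio of means was 8.24 for Krt7 and 32.1 for Krt19, and Cldn4 stood at 44.2 ± 7.03 FPKM in RA-16d against 0.122 or less in each SMC library. XEN was higher than SMC in 5 genes, Krt8, Krt18, Krt19, Epcam and Ocln, and lower in 1, Krt7 (12.5 and 17.2% of all genes), and the 4 claudins differed by -0.18 to 0.47 at levels under 0.6 FPKM in both. With a pseudocount of 0.1 the difference of Cldn4 was 1.98, past the thresholds.

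Other genes of epithelial junctions were counted in the same comparisons. Of 18 junction scaffold and polarity genes, 8 rose and 2 fell from mES to RA-4d (11.7 and 11.7% of all genes) and 10 rose and 2 fell to RA-16d (20.4 and 16.3% of all genes). F11r, the adhesion protein JAM-A (2.24 ± 0.08), and the polarity gene Patj (1.87 ± 0.13) were among those that rose to RA-16d, and Cdh1 (-1.33 ± 0.09) and the scaffold gene Tjp3 (-1.06 ± 0.18) fell. In RA/CHIR-16d 9 rose and 0 fell (18.0 and 18.3% of all genes), and Cdh1 stood at 91.4 ± 5.74 FPKM against 32.3 ± 1.11 in RA-16d, a difference of 1.47 ± 0.09. In XEN 7 rose and 3 fell (14.4 and 18.7% of all genes): F11r rose (3.10 ± 0.08), as did Lsr, a protein of tricellular junctions (1.43 ± 0.07), while Cdh1 (-4.49 ± 0.09), the polarity gene Crb3 (-1.98 ± 0.16) and Tjp3 (-1.19 ± 0.18) fell. The median change of the 18 was 1.23 in the RA arm on day 16, 1.12 in RA/CHIR-16d and 0.70 in XEN, with 0.03, -0.02 and -0.13 over all genes. Of 8 desmosome genes tested out of 11, 3 rose and 3 fell in XEN (14.4 and 18.7% of all genes), with a median of -0.51 against -0.13 over all genes, and with the plaque gene Dsp (3.11 ± 0.10) higher and Pkp3 (-3.97 ± 0.16) lower.

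Of 8 surface proteases, their inhibitors and partners linked to Epcam, 6 were higher in RA/CHIR-16d than in XEN and 0 lower (14.5 and 8.64% of all genes), with a median of 3.01 against 0.07 over all genes. They included St14, which encodes matriptase (5.18 ± 0.15), its inhibitor Spint1 (4.00 ± 0.10) and the protease gene Tmprss2 (4.78 ± 0.07). St14 stood at 0 to 0.0680 FPKM in XEN, beside Epcam at 10.1 to 12.7. Of 16 epithelial regulators tested out of 17, 7 were higher in RA/CHIR-16d than in RA-16d and 0 lower (8.41 and 12.9% of all genes), with a median of 0.53 against -0.01 over all genes, among them Klf5 (2.28 ± 0.11), Elf3 (1.98 ± 0.13) and Ovol2 (1.78 ± 0.20). Of 12 genes of mesenchymal transition, 11 rose and 1 fell from mES to RA-16d (20.4 and 16.3% of all genes) while Krt8, Krt18 and Krt19 were high, with a median of 1.74 against 0.03 over all genes. In RA/CHIR-16d, 2 of the 12 were higher and 8 lower than in RA-16d (8.41 and 12.9% of all genes), with a median of -1.56 against -0.01. The repressor genes of the E-box shown above did not move as 1 group: Snai1 was higher in RA/CHIR-16d than in RA-16d (1.67 ± 0.16) and Zeb1 lower (-2.46 ± 0.12).

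Of the other claudins, 8 of 19 were tested, and 6 rose from mES to RA-16d and 0 fell (20.4 and 16.3% of all genes), among them Cldn11 (2.39 ± 0.16) and Cldn15 (2.39 ± 0.18). In RA/CHIR-16d 4 rose and 0 fell (18.0 and 18.3% of all genes), and in XEN 0 rose and 1 fell (14.4 and 18.7% of all genes). Their median was 1.63 in the RA arm on day 16, 0.67 in RA/CHIR-16d and -0.05 in XEN, with 0.03, -0.02 and -0.13 over all genes. Cldn12, chosen after its values were seen, stood in XEN and SMC at 20.8 ± 3.19 and 26.7 ± 2.62 FPKM. The 19 other claudins summed to 18.4 to 24.5 FPKM in XEN and 27.0 to 31.2 in SMC. Their sum was 17.5 to 25.9 in mES, 23.4 to 25.6 in RA/CHIR-10d and 59.2 to 65.6 in RA-16d. Of 15 other keratins, 10 were tested, with 4 higher and 1 lower in RA-16d than in mES (20.4 and 16.3% of all genes) and a median of 0.62 against 0.03 over all genes, including Krt14 (4.36 ± 0.19) and Krt15 (4.34 ± 0.16), while Krt42 was lower (-4.79 ± 0.17). Krt23 was at 26.3 ± 1.03 FPKM in RA/CHIR-16d and 19.5 ± 1.25 in XEN against 4.09 ± 0.692 in RA-16d. By FPKM, Krt14, Krt15 and Krt23 stayed under the levels of Krt8, Krt18 and Krt19 in the same groups.

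The patterns of the 10 genes over the 11 group means of log2(FPKM + 1) were compared with each other and with other genes, as a description with n = 11 groups that share a library protocol. Krt18 and Krt19 had a Pearson r of 0.917, Cldn3 and Cldn7 0.964, and Cldn3 and its neighbour Cldn4 0.940, which without SMC and XEN were 0.956, 0.839 and 0.691. Other claudin pairs dropped further without SMC and XEN. Cldn4 and Cldn6 went from 0.894 to -0.182 and Cldn3 and Cldn6 from 0.895 to 0.332. Cldn6 and Cldn7 went from 0.908 to 0.498, and Cldn4 and Cldn7 from 0.906 to 0.495. Krt8 and Cldn6 had 0.581, which was 0.0269 without SMC and 0.733 without SMC and XEN. Krt7 had 0.223 to Krt8, 0.312 to Krt18 and 0.603 to Krt19, and these became 0.533, 0.653 and 0.790 without SMC and XEN. Of 11665 other genes compared, the most similar to Krt8 was Cpm (0.956), followed by Lsr (0.953), and to Krt18 Cmtm8 (0.969). For Krt19 it was Tbc1d24 (0.940), for Krt7 Hdhd3 (0.970), for Cldn3 and Cldn7 Crb3 (0.958 and 0.960) and for Cldn4 Cog4 (0.969). For Cldn6 it was Peg10 (0.986), for Epcam Spint2 (0.972) and for Ocln Cystm1 (0.965). Likeness to other genes was not computed without SMC and XEN, where the claudins were at or near 0, and a shared low level there can raise r. Whether these genes share regulation was not tested.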

How the data were processed

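Poly(A) RNA of 33 libraries was read as 150 bp pairs and about 25M reads, per the labels' protocols, and the authors deposited 1 table of FPKM values per gene and library. Trimmomatic 0.33, HISAT2 2.0.4, Cuffdiff, Cufflinks and the build GRCm38 are given by the submitters' processing notes, with no role or settings, and the strand setting is not given in the sources used here. An estimated 0 can be a failed estimate: 5 protein-coding genes, none of the 10 described, stood at 0 in a library while another of their group had at least 20 FPKM.

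Deposited values were taken as log2(FPKM + 1), genes with at least 1 FPKM in at least 3 libraries were kept, and limma 3.58.1 in R 4.3.3 was fitted to 11 groups of 3 with a variance trend, with 24 comparisons, two-sided tests and Benjamini-Hochberg adjustment over 16508 genes in each. FPKM carry no counts, so no count model was used and no counting intervals are given. Of the gene IDs, 52398 matched names in GENCODE M21, which also gave the coordinates, and 13 symbols stored as dates were restored. Near-identical genes were sought with BLAST 2.17.0 at 90% identity or more over at least 300 bases, and the model was tested on simulated data. Sums and figures used Python 3.11.15, numpy 2.4.6, pandas 2.3.3 and matplotlib 3.10.9. The genes, the other lists and the marker lists were chosen with earlier results of these data known. Named besides the 10 are at most the 4 called genes of a list with the largest change in each direction, and for likeness the most similar genes with at least 5 FPKM in their highest group. Alternatives were trimmed-mean and quantile scaling, a pseudocount of 0.1, no filter or one at 5 FPKM, a model without a variance trend, a model of just the pair of groups, a block for the replicate number, and each library left out in turn.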

Additional observations from a re-analysis of the deposited data

Results flagged for a closer look

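For some of the 10 genes the change over time differed between the arms by the test of the difference itself, the limma interaction term of RA/CHIR minus RA. From day 10 to day 16 this held for 4 of the 10 genes, with 6.02 and 8.81% of all genes positive and negative. From day 4 to day 16 it held for 6 of the 10, with 10.5 and 14.9% of all genes. From day 10 to day 16 the term was 1.56 for Krt8, 1.04 for Krt18, 1.29 for Ocln and -1.32 for Epcam. Krt8 went from 261 ± 14.2 to 233 ± 11.2 FPKM in RA and from 179 ± 4.67 to 472 ± 5.39 in RA/CHIR, and Epcam from 22.5 ± 1.22 to 80.4 ± 5.07 in RA and from 85.8 ± 1.34 to 119 ± 5.83 in RA/CHIR. From day 4 to day 16 the term was 2.80 for Cldn7, 2.65 for Ocln, 2.08 for Krt8, 1.5002 for Krt18, 1.29 for Krt19 and -2.19 for Krt7. Cldn7 went from 35.8 ± 2.92 to 43.4 ± 5.60 FPKM in RA and from 7.48 ± 1.65 to 69.3 ± 2.32 in RA/CHIR. In RA, 8 fibroblast markers summed to 30.6 to 32.5 FPKM on day 4 and 2934 to 3621 on day 16, and in RA/CHIR to 21.6 to 30.3 and 431 to 469. In RA/CHIR, 8 visceral endoderm markers summed to 12.8 to 15.1 FPKM on day 10 and 757 to 780.4 on day 16 and 10 extraembryonic endoderm markers to 4814 to 4837 and 13522 to 14248. In RA, the visceral endoderm markers summed to 24.3 to 27.0 and 22.3 to 25.2 on these days and the extraembryonic endoderm markers to 1594 to 1639 and 3741 to 3994. The part of these markers in the terms was not tested.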

How the results depend on the processing

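Of 240 pairs of gene and comparison, none changed its call with no filter, a filter at 5 FPKM, only the groups compared, or no variance trend. Trimmed-mean scaling changed 2 calls, quantile normalization 9 and a pseudocount of 0.1 changed 6, none with a change of direction, and leaving out 1 library weakened 11 and strengthened 12 of 1560 values. The cause of these changes was not tested. The number of the 10 genes called stayed within 1.5 times under every alternative. It went from 8 to 6 for RA-16d against XEN, from 3 to 2 for RA/CHIR-16d against RA-16d and from 2 to 3 for RA/CHIR-16d against RA/CHIR-10d. Quantile normalization turned the term of Krt19 between day 10 and day 16 to 1.05, Cldn6 in RA-16d against RA-4d to -1.04, and moved the median of all genes by -0.21 to 0.14 and the share of higher calls among all called genes by up to 18.8 percentage points. That share went from 80.4 to 69.9% in RA-16d against RA-10d, from 69.4 to 56.2% against RA-4d and from 67.4 to 48.7% against XEN, and from 62.7 to 50.4% in RA/CHIR-16d against XEN. The pseudocount of 0.1 turned Krt7 in RA/CHIR-16d against RA/CHIR-10d to 1.09, which was 1.02 to 1.15 without any 1 of these libraries: replicates 2 and 3 of RA/CHIR-10d, and 1 and 2 of RA/CHIR-16d. It raised the count of all genes called in RA/CHIR against RA from 1259 to 2192 on day 4, 1762 to 2964 on day 7 and 2546 to 3888 on day 10, and between day 16 and day 10 from 1514 to 2339 in RA and 2435 to 3820 in RA/CHIR. Depth behind single values is unknown, so levels under 1 FPKM are the least certain.

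Replicate numbers were not shown to pair the libraries: correlations of deviations between same-numbered libraries were -0.0763 to 0.112, and in no comparison were all 3 over 0.1. With the replicate number as a block, 0 of 240 calls changed, and the counts of the 10 genes called were the same as without it, for example 7, 9, 9 and 8 in RA against mES on days 4, 7, 10 and 16. In 3 comparisons all 6 libraries correlated best with their own number, a hint from the data only. They were RA/CHIR against RA on days 4 and 7, and RA/CHIR-10d against mES. The same-numbered correlations in these 3 were 0.0307 to 0.104.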
